A study of Mus musculus with 30 samples.

Results

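The 8 genes described here encode transcription factors that are switched on when a T cell receives a signal through its antigen receptor. They are the zinc finger factors Egr1, Egr2 and Egr3, the orphan nuclear receptors Nr4a1, Nr4a2 and Nr4a3, the interferon regulatory factor Irf4 and its partner Batf. They were chosen by name, with earlier results of these data known. Of 45118 probe sets on the array, 16 were annotated to exactly 1 of these symbols, and no gene was without one. Each gene was represented by whichever probe set averaged highest across the 30 arrays, as were 17097 genes in all. Egr1, Egr3, Nr4a1 and Batf had 1 probe set each, Egr2 and Irf4 had 2, Nr4a3 had 3 and Nr4a2 had 5.

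RNA of CD4+ T cells and of CD11c+ cells, which hold the dendritic cells, was hybridised to Affymetrix mouse arrays in 5 groups of 3 arrays per cell type. Every mouse was of the DO11.10 RAG2-/- BALB/c genotype and 8 to 10 weeks old. In such mice every T cell carries the same transgenic receptor, specific for an ovalbumin (OVA) peptide, and loss of RAG2 leaves the animal without mature B cells and without T cells of other specificities. The abatacept group received a subcutaneous dose of 100 micrograms of OVA per mouse in complete Freund's adjuvant, called priming here, and abatacept at 10 mg/kg, and the control IgG group was primed likewise and given control IgG at 10 mg/kg. Abatacept is a CTLA-4 fusion protein that binds CD80 and CD86 and so withholds the CD28 costimulatory signal. The tolerised group drank OVA in water, at a dose that the treatment protocol gives as 50 mg/ml and the design text as 50 mg/kg, and no priming is stated for it. The primed group received OVA in adjuvant alone, and the unimmunised group received no antigen. CD4+ T cells were taken 10 days after immunisation, and the day from which this counts in tolerised and unimmunised mice is not stated. The source of CD4+ T cells was the axillary nodes for abatacept, control IgG and primed mice, the mesenteric nodes for tolerised mice, and nodes pooled with spleen for unimmunised mice. CD11c+ cells were always isolated from nodes pooled with spleen. Both fractions are stated to be over 90% pure, and nothing says whether each array is a mouse of its own, so the p-values reflect only array-to-array spread, which may be technical.

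Engagement of the T cell receptor raises calcium, which activates calcineurin and the NFAT factors, and it activates the Ras and ERK kinases, which act through serum response factor. Egr and Nr4a genes are immediate early genes at the end of these routes, transcribed within the first hours of a signal without new protein synthesis. Egr2 and Egr3 are known to restrain T cells that are signalled without costimulation, and the Nr4a receptors are known for their part in tolerance and exhaustion and, in the case of Nr4a1, as a gauge of receptor signalling. Irf4 rises with the strength of the receptor signal, and Batf, an AP-1 factor that pairs with Jun proteins, binds DNA together with Irf4 at genes of effector and follicular helper T cells. In dendritic cells Irf4 is required by the subset that primes helper T cells.

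Values are the authors' log2 levels after robust multi-array averaging (RMA), a difference of 1 is a doubling, and levels of different genes cannot be set against each other because probes differ. Array medians lay between 4.4555 and 4.544. Arrays of a group correlated at 0.983 to 0.995 over all probe sets, which are not independent. The labelled cell types were checked on their defining markers: Cd3e read 10.69 to 11.65 on CD4+ arrays and 6.82 to 8.78 on CD11c+ arrays, and Itgax, which encodes CD11c, read 3.30 to 7.04 on CD4+ arrays and 9.56 to 10.29 on CD11c+ arrays. T cell transcripts were therefore present on CD11c+ arrays, where 6 or 7 of 9 T cell markers had a group mean above the highest array median. CD4+ unimmunised arrays stood apart, with S100a8, a neutrophil gene, at 11.60 ± 0.05 (SD, n = 3) and all 7 neutrophil, 6 erythroid and 6 red pulp macrophage markers above the array medians. The Y-linked gene Eif2s3y was high in CD4+ tolerised, CD4+ primed and CD11c+ primed arrays (group means 8.58 to 8.89), read 8.76, 5.92 and 8.20 in CD11c+ control IgG arrays, and averaged 2.51 to 2.62 in the 6 other groups. Groups that differ in Eif2s3y may differ in the sex of the mice, which the labels do not give, so sex and treatment cannot be told apart there. Abatacept and control IgG arrays of CD4+ T cells were both low, and tolerised and primed arrays of CD4+ T cells were both high.

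**Figure D1:**
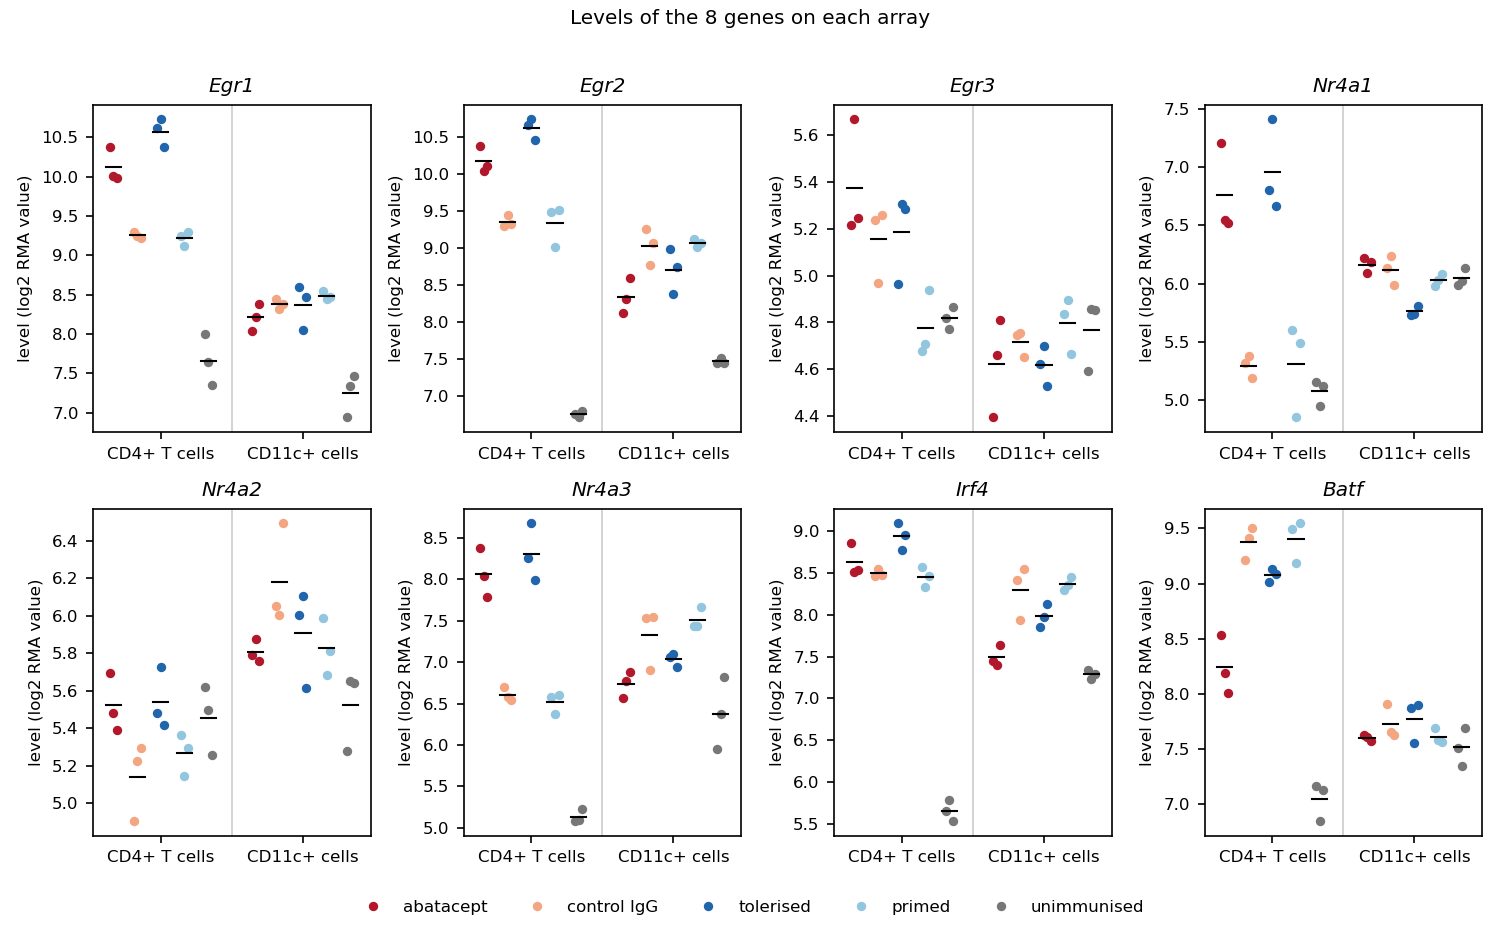
Level (log2 RMA value, y axis) of each gene on each array, with CD4+ T cells on the left and CD11c+ cells on the right of each panel. Points are arrays, black bars are means of 3 arrays, and the y axis does not start at 0; Egr1, Egr2, Nr4a1 and Nr4a3 stood higher in abatacept than in control IgG arrays and higher in tolerised than in primed arrays of CD4+ T cells, with no overlap.

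Abatacept was set against control IgG to see how costimulation blockade during priming bore on the factors in CD4+ T cells. Of the 8 genes, 4 rose and 1 fell under abatacept, while 16.7% of all 10322 genes tested were called, 3.33% as higher and 13.4% as lower. Calls were made with limma at an adjusted p (Benjamini-Hochberg over all genes tested) below 0.05. The median difference of the 8 genes was 0.60, against -0.07 over all genes tested. In 6 of the 8 genes no array of one group lay within the range of the other, as was so for 36.7% of all genes.

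Nr4a3, the Nor1 receptor, read 8.37, 8.05 and 7.79 in abatacept arrays, against 6.70, 6.58 and 6.54 in control IgG arrays. All 3 abatacept arrays lay above all control IgG arrays, and the rise was 1.46 (SE 0.16, 95% interval 1.11 to 1.81), or 2.76-fold (adjusted p = 4.52e-05). Nr4a1, which encodes Nur77, read 7.21, 6.55 and 6.52 in abatacept arrays, against 5.32, 5.38 and 5.19 in control IgG arrays. Its rise was also 1.46 (SE 0.23, adjusted p = 0.000787), with abatacept replicate 1 standing above the other two. Egr1 read 10.37, 10.01 and 9.99 in abatacept arrays, against 9.30, 9.25 and 9.22 in control IgG arrays, a 1.83-fold rise (log2 difference 0.87, SE 0.15, adjusted p = 0.00168). Egr2 read 10.37, 10.04 and 10.11 in abatacept arrays, against 9.29, 9.45 and 9.32 in control IgG arrays, a 1.77-fold rise (0.82, SE 0.13, adjusted p = 0.000831). For both Egr genes the lowest abatacept array exceeded the highest control IgG array.

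Batf went the other way. It read 8.53, 8.19 and 8.01 in abatacept arrays, against 9.21, 9.41 and 9.51 in control IgG arrays, and fell by 1.13 (SE 0.14, 95% interval -1.43 to -0.83), a 2.19-fold fall (adjusted p = 0.000121). Its partner Irf4 averaged 8.64 ± 0.19 in abatacept and 8.50 ± 0.04 in control IgG arrays (SD, n = 3), a difference of 0.14 with a 95% interval of -0.10 to 0.38 (adjusted p = 0.434). The arrays of the groups overlapped for Irf4. Egr3 differed by 0.22 (interval -0.07 to 0.51, adjusted p = 0.288) and Nr4a2 by 0.38 (interval 0.10 to 0.67, adjusted p = 0.0651). These 5 calls held when any 1 array was left out. In a bulk sample, more cells that transcribe a gene and more RNA per cell cannot be told apart.

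Other genes of the pathway are described from lists that were drawn up with earlier results of these data known. Of 12 other immediate early genes tested, 6 rose and 6 were not called (median 0.30). Fos, an AP-1 subunit, averaged 8.07 ± 0.51 in abatacept and 5.80 ± 0.12 in control IgG arrays (SD, n = 3), a 4.81-fold rise (SE 0.22, adjusted p = 1.05e-05). The AP-1 subunit Jun rose 2.93-fold and the MAP kinase phosphatase gene Dusp1 rose by 1.585. This list also holds genes that respond to handling of cells, whose part in the result was not tested. The corepressor gene Nab2, itself a partner of Egr proteins, rose by 0.585 (SE 0.127, adjusted p = 0.00719) and was the 1 of 2 Egr relatives tested that was called. Of 9 calcineurin and NFAT genes, 2 fell and 7 were not called: Ppp3ca, a catalytic subunit of calcineurin, fell by 0.85 and Nfatc2 fell by 0.485. Of 13 genes of the Ras and ERK route, 2 rose and 2 fell, and the feedback genes went both ways, with Spry2 2.30-fold higher (level 4.02 in abatacept arrays, below the array medians) and the phosphatase gene Dusp4 3.99-fold lower.

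Among genes reported as regulated by Egr2 or Egr3 in T cells, 4 of 10 tested rose and 1 fell. Tnfrsf9, the 4-1BB receptor, rose 1.83-fold (SE 0.26, adjusted p = 0.0365), Fasl rose 1.99-fold and Crtam 1.95-fold, while the cytokine inhibitor gene Socs3 fell by 0.77. Of 4 tolerance and exhaustion genes linked to Nr4a factors that were tested, 2 fell and 2 were not called. Havcr2, which encodes TIM-3, fell by 1.35 and Foxp3, the regulatory T cell factor, fell by 1.74. Of 6 effector genes that need Batf or Irf4, 3 fell: Il2ra, the interleukin-2 receptor alpha chain, by 2.20, the costimulatory receptor gene Icos by 1.89, and Maf by 1.67, to a level below the array medians. Relatives and competitors of Batf and Irf4 rose in 2 of 6 cases, the repressor Bach2 by 0.63 (adjusted p = 0.00016) and Irf8 by 0.62. Of the markers of other cells, no dendritic cell marker of 5, no red pulp macrophage marker of 6, no neutrophil marker of 7 and no mast cell marker of 5 was called. Of 7 monocyte and macrophage markers 1 was called, Ccr2, which fell by 1.91. Of 6 erythroid markers 1 rose, Ermap by 0.83, and of 2 B cell markers 1 rose, Cd79a by 0.27. Of 9 T cell markers 1 fell, Trat1 by 0.87. Of 6 natural killer cell markers 1 was called, the granzyme gene Gzma, which rose by 1.53, and the summed level of that list was 9.71 to 9.79 in abatacept arrays and at most 9.12 in control IgG arrays. The part of these cells in the result was not tested.

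**Figure D2:**
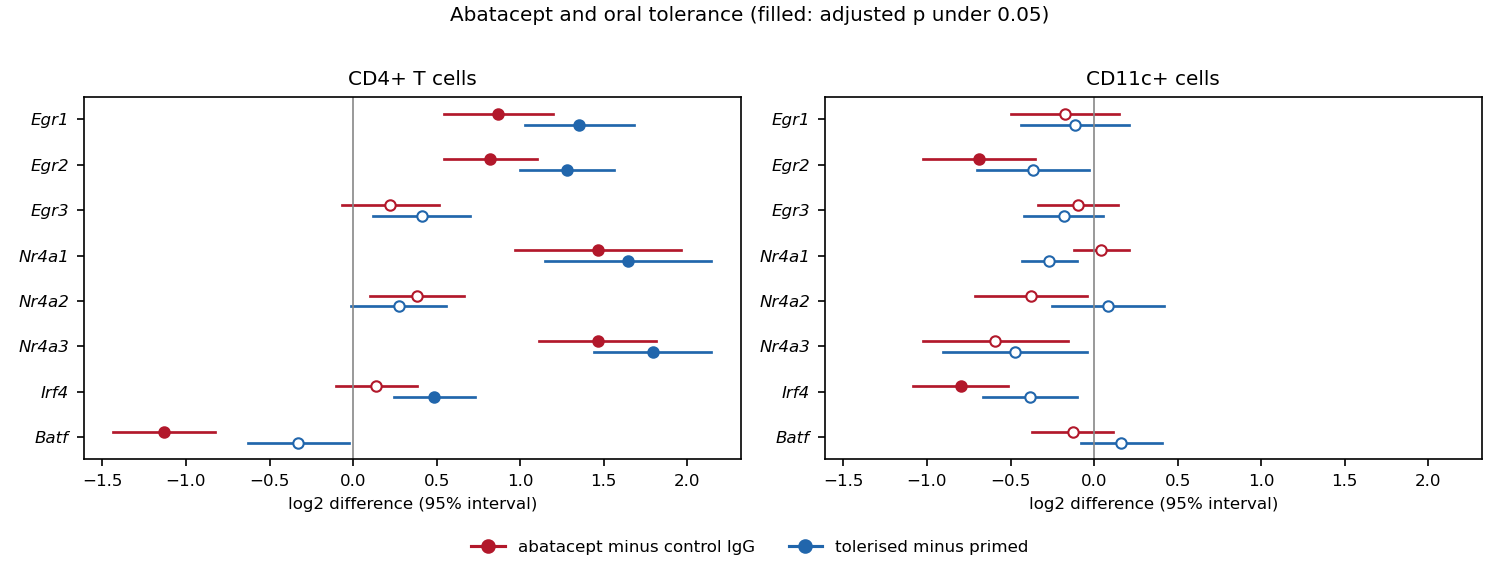
Log2 difference (x axis) of each gene for abatacept minus control IgG and for tolerised minus primed, in CD4+ T cells (left) and CD11c+ cells (right). Points are fitted differences of 3 against 3 arrays, bars are 95% intervals of the limma fit over 15 arrays, and filled points were called; in CD4+ T cells both contrasts raised Egr1, Egr2, Nr4a1 and Nr4a3, and Batf fell under abatacept.

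Oral antigen given to tolerise was set against priming with adjuvant to see how the factors stood in tolerised CD4+ T cells. Of the 8 genes, 5 rose in the tolerised group and 3 were not called, with 14.7% of all genes called and 6.24% called higher. The median difference of the 8 genes was 0.88, against -0.05 over all genes, and none of the 8 overlapped between groups, as was so for 30.5% of all genes. Mesenteric and axillary lymph nodes went with the groups, so tissue and treatment cannot be told apart.

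Nr4a3 read 8.25, 8.68 and 8.00 in tolerised arrays, against 6.58, 6.37 and 6.60 in primed arrays, a 3.46-fold rise (1.79, SE 0.16, adjusted p = 1.83e-05). Nr4a1 read 6.80, 7.41 and 6.67 in tolerised arrays, against 5.60, 4.85 and 5.49 in primed arrays, a 3.13-fold rise (1.65, SE 0.23, adjusted p = 0.000462). Every tolerised array lay above every primed array for both receptors. Egr1 read 10.61, 10.73 and 10.38 in tolerised arrays, against 9.25, 9.12 and 9.29 in primed arrays, a 2.55-fold rise (1.35, SE 0.15, adjusted p = 8.22e-05). Egr2 read 10.66, 10.74 and 10.46 in tolerised arrays, against 9.49, 9.02 and 9.52 in primed arrays, a 2.42-fold rise (1.28, SE 0.13, adjusted p = 4.03e-05). The gap between groups was wider than the spread within either for both Egr genes. Irf4 read 9.09, 8.77 and 8.96 in tolerised arrays, against 8.57, 8.33 and 8.47 in primed arrays, a 1.40-fold rise (0.48, SE 0.11, adjusted p = 0.011). That call was lost without tolerised replicate 1 (0.41, adjusted p = 0.0536).

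Batf averaged 9.08 ± 0.06 in tolerised and 9.41 ± 0.20 in primed arrays (SD, n = 3), a difference of -0.33 with a 95% interval of -0.63 to -0.03 (adjusted p = 0.142). Egr3 differed by 0.41 (interval 0.12 to 0.70, adjusted p = 0.0582) and was called without tolerised replicate 1 (0.52, adjusted p = 0.0344). Nr4a2 differed by 0.27 (adjusted p = 0.197). The contrast of abatacept with control IgG and that of tolerised with primed share no arrays, and their difference was tested directly. Of the 8 genes only Batf was called in that test, at -0.80 (SE 0.20, adjusted p = 0.0249), where 7.99% of all genes were called and 5.46% were called lower. The call was lost without abatacept replicate 2 or 3, control IgG replicate 2 or 3, primed replicate 2 or tolerised replicate 2 (-0.78 to -0.68, adjusted p 0.0551 to 0.0651). Egr1 at -0.48, Egr2 at -0.46 and Irf4 at -0.34 had 95% intervals just below 0 and adjusted p of 0.154 to 0.211. Nr4a3 differed by -0.33 (interval -0.82 to 0.17) and Nr4a1 by -0.18 (interval -0.88 to 0.52).

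The other genes of the pathway moved as follows in the tolerised group. Of 12 immediate early genes 5 rose and 1 fell (median -0.01). Among the risers, Fosl2 rose 2.51-fold, Ier3 3.46-fold, Fos by 1.001 on the log2 scale and Dusp1 1.65-fold. Nab2 rose by 0.52 (adjusted p = 0.0143). Of 9 calcineurin and NFAT genes, Nfatc1, whose short form is itself induced by NFAT, rose by 0.81, while Ppp3ca fell by 1.18 and Nfatc2 fell by 0.61. Among 10 genes reported as regulated by Egr2 or Egr3, 5 rose and 2 fell, with the inhibitory receptor gene Lag3 at 6.496 in tolerised and 3.995 in primed arrays (below the array medians in the primed group, 5.66-fold) and Tnfrsf9 4.32-fold higher. Of 4 genes linked to Nr4a factors, 2 rose: Ikzf2, which encodes Helios, 2.69-fold and Pdcd1, which encodes PD-1, 1.90-fold. Of 6 effector genes that need Batf or Irf4, Ctla4 rose 2.27-fold and Icos fell by 0.67. Relatives of Batf and Irf4 rose in 5 of 6 cases, among them Irf8, 2.76-fold. Of 13 Ras and ERK genes 2 rose and 11 were not called.

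Markers of other cells moved with the tolerised group. Of 5 mast cell and basophil markers, 5 were called higher, with a summed level of 7.31 to 8.81 in tolerised and 5.98 to 6.19 in primed arrays. Of 6 natural killer cell markers 3 were higher, with a summed level of 11.10 to 11.92 in tolerised and 9.04 to 9.30 in primed arrays. Of 6 red pulp macrophage markers 4 were higher (median 0.71), among them C1qa, 3.02-fold, with a summed level of 6.59 to 7.63 in tolerised arrays and a lower one in every primed array. Of 7 monocyte and macrophage markers 1 was higher, Lyz2, and 1 lower, Ccr2 by 0.86. Of 5 dendritic cell markers 2 were higher, of 7 neutrophil markers 2, and of 2 B cell markers 1, while 1 of 9 T cell markers was lower. Monocyte and macrophage markers summed to 9.20 to 10.95 in tolerised and 8.04 to 8.67 in primed arrays, dendritic cell markers to 7.98 to 9.37 in tolerised and 7.49 to 7.68 in primed arrays, and neutrophil markers to 7.87 to 10.00 in tolerised and 6.42 to 7.07 in primed arrays. Itgax read 6.13, 5.36 and 4.45 in tolerised arrays, against 4.05, 3.78 and 3.47 in primed arrays. The part of such cells in the result was not tested.

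The promoter windows of genes that rose together, and of Batf, which did not, are shown because the motifs that end the receptor routes can be read in them. The windows are RefSeq sequence of build GRCm38.p6 and run from 250 bases before a gene's start to 50 bases after it. Of the 8 genes, 6 had a window and Egr2 had 5 windows. Searched on both strands were the CArG box of serum response factor, the full cyclic AMP response element (CRE, TGACGTCA), the CRE core CGTCA, the Egr site GCGNGGGCG, the Nr4a element AAAGGTCA and the AP-1 site TGANTCA. The core was added after the windows were seen, and a full CRE contains it on each strand. Capitals mark CArG boxes, CRE cores and Egr sites, each sequence being written 5′ to 3′ on the gene's strand: Nr4a1 lies at chr15:101266596-101266895 (plus strand), Nr4a3 at chr4:48045055-48045354 (plus), Egr2 at chr10:67537619-67537918 (plus) and Batf at chr12:85686470-85686769 (plus).
Nr4a1: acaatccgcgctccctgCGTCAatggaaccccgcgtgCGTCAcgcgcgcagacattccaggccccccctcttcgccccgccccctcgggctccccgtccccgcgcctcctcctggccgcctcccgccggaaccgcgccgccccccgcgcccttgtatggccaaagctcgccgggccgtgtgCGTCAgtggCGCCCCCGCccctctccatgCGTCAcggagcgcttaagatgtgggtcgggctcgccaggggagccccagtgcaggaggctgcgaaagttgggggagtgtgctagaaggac
Nr4a3: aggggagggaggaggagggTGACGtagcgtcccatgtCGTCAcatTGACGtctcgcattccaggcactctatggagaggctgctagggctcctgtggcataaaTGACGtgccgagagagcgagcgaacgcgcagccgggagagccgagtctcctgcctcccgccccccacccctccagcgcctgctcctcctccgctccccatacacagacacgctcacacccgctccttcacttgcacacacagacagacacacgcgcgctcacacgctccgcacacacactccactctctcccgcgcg
Egr2: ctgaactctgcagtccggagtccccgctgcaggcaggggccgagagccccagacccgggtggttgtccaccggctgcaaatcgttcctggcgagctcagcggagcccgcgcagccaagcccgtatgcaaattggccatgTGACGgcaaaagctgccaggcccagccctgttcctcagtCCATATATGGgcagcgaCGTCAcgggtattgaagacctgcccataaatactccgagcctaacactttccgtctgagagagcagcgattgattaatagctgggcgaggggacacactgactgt
Batf: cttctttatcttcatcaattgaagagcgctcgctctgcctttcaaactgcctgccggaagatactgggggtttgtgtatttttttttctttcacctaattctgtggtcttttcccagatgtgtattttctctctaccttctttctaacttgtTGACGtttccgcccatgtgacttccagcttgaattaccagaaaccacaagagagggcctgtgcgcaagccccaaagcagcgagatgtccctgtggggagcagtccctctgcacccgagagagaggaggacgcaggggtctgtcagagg
The Nr4a1 and Nr4a3 windows held 4 CRE cores each, as did the window of Nr4a2 at chr2:57123954-57124253 (minus strand). At least 4 cores were present in 0.231% of 32851 promoter windows of the same length, and in 0.563% of the 6218 windows at least as rich in G and C as the least GC-rich of the 3. The Egr2 window shown held 1 CArG box (in 1.63% of windows) and 2 cores (at least 2 in 5.01%). The Egr2 windows at chr10:67537620-67537919 and chr10:67537680-67537979 overlap it and hold the same matches. A CArG box was also found in the Egr2 window at chr10:67537316-67537615. The Egr2 window at chr10:67535249-67535548 held none of the motifs. An Egr site was found in the windows of Nr4a1 and Nr4a2 (5.55% of windows). The Batf window held 1 core (at least 1 in 20.8%), and the Irf4 window at chr13:30748983-30749282 held none of the motifs. No window of these genes held the full CRE (1.79%), the Nr4a element (1.51%) or the AP-1 site (7.81%). A match describes letters in a window and is not evidence that a factor binds there.

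Priming alone was set against no immunisation to see which of the factors stood higher after priming. In CD4+ T cells 5 of the 8 genes rose, where 47.4% of all genes were called and 23.3% were called higher. Irf4 read 8.57, 8.33 and 8.47 in primed arrays, against 5.66, 5.79 and 5.54 in unimmunised arrays, a 6.93-fold rise (2.79, SE 0.11, adjusted p = 4.25e-10). Egr2 rose 5.99-fold (2.58, SE 0.13, adjusted p = 3.45e-09), with unimmunised arrays at 6.76, 6.72 and 6.80. Batf read 9.49, 9.18 and 9.55 in primed arrays, against 7.16, 6.85 and 7.13 in unimmunised arrays, a 5.13-fold rise. Egr1 rose 2.94-fold and Nr4a3 2.61-fold. All 5 were separated from the unimmunised arrays without overlap, as were 57.9% of all genes. Nr4a1 stood at 5.31 ± 0.40 in primed arrays and at 5.08 ± 0.11 in unimmunised ones (SD, n = 3), a difference of 0.24 with a 95% interval of -0.26 to 0.73 (adjusted p = 0.421). Thus Nr4a3 was called after priming and Nr4a1 was not, and whether the pair differ from each other was not tested. The Nr4a3 call depended on the probe set. In limma, 1421079_PM_at rose by 0.57 (adjusted p = 0.105) and was not called, and 1421080_PM_at rose by 0.58 (adjusted p = 0.0371).

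In tolerised CD4+ T cells 7 of the 8 genes rose (49.5% of all genes called, 20.3% higher), Egr2 14.5-fold, Irf4 9.70-fold, Nr4a3 9.02-fold, Egr1 7.51-fold, Batf 4.08-fold, Nr4a1 3.69-fold and Egr3 1.29-fold. The Egr3 call (0.365, adjusted p = 0.0373) was lost without tolerised replicate 2 or 3 or any 1 of the unimmunised replicates (0.30 to 0.39, adjusted p 0.0633 to 0.119). In abatacept CD4+ T cells 7 of the 8 genes also rose (57.9% of all genes called, 23.4% higher), from 10.7-fold for Egr2 to 1.47-fold for Egr3, and Batf rose 2.29-fold. Nr4a2 was called in neither, at 0.08 in tolerised and 0.07 in abatacept mice. These comparisons share the unimmunised arrays, on which all 5 dendritic cell, 7 macrophage, 6 red pulp macrophage, 7 neutrophil, 6 erythroid and 5 mast cell markers tested were higher than in primed arrays, and 8 of 9 T cell markers lower. The median difference of the T cell list between primed and unimmunised arrays was 1.04, and Cd5 was higher in primed arrays by 2.85. Tissue differed as well, and its part and that of the other cells were not tested. Eif2s3y was high in primed and tolerised arrays and low in unimmunised ones, whereas it was low on both sides for abatacept.

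**Figure D3:**
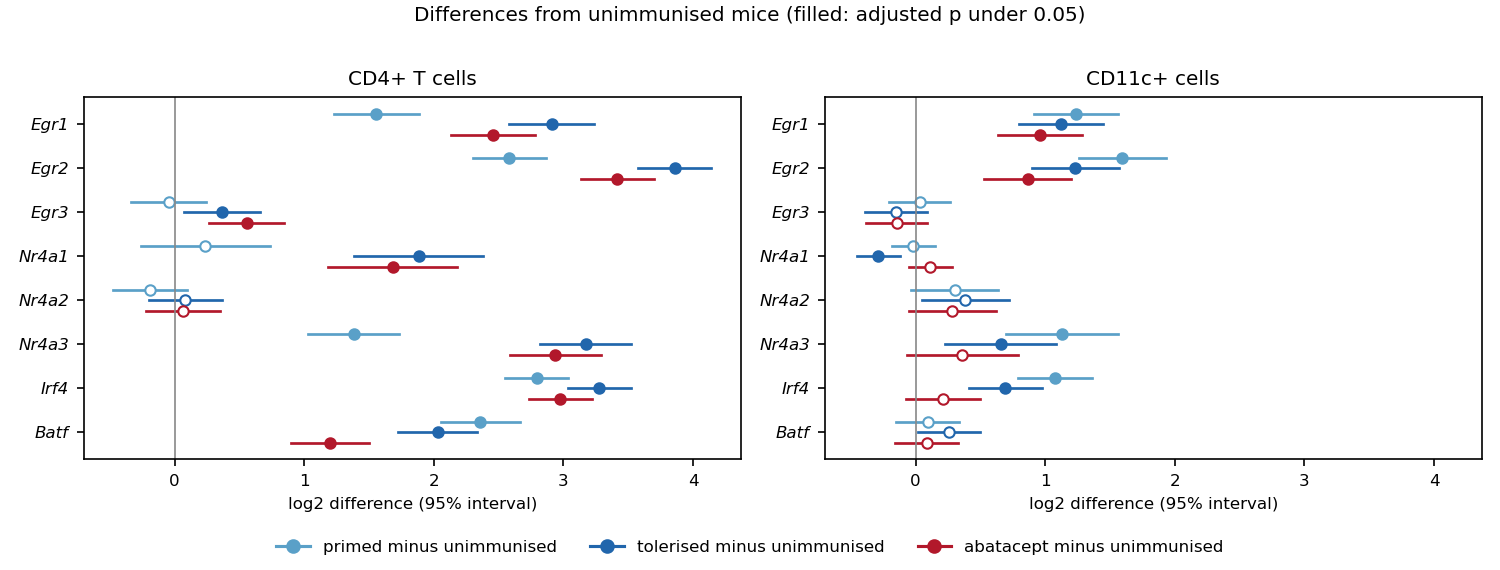
Log2 difference (x axis) of each gene from unimmunised mice for primed, tolerised and abatacept groups, in CD4+ T cells (left) and CD11c+ cells (right). Points are fitted differences of 3 against 3 arrays, bars are 95% intervals, and filled points were called; Egr2 was 2.58, 3.86 and 3.42 higher in CD4+ T cells of primed, tolerised and abatacept mice.

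Set directly against each other, abatacept and tolerised CD4+ T cells differed in 3 of the 8 genes, all lower under abatacept, where 23.3% of all genes were called and 15.8% were called lower. Batf averaged 8.25 ± 0.26 in abatacept and 9.08 ± 0.06 in tolerised arrays (SD, n = 3), a fall of 0.83 (SE 0.14, adjusted p = 0.000932). Egr2 was lower by 0.44 (adjusted p = 0.026) and Egr1 by 0.45 (adjusted p = 0.0467), and both calls were lost without abatacept replicate 2 or 3 or tolerised replicate 1 or 2 (Egr1 -0.43 to -0.37, Egr2 -0.42 to -0.38). Irf4, at -0.30 (adjusted p = 0.0684), was called without abatacept replicate 1 (-0.41) or tolerised replicate 2 (-0.39). Nr4a1 differed by -0.20 (interval -0.70 to 0.30) and Nr4a3 by -0.24 (interval -0.59 to 0.11), with overlapping arrays. Markers of other cells were lower under abatacept in the same comparison: 5 of 5 mast cell, 5 of 6 red pulp macrophage, 3 of 7 monocyte and macrophage, 2 of 5 dendritic cell and 2 of 7 neutrophil markers, while of 6 natural killer cell markers 3 were lower and 1 higher, and 3 of 9 T cell markers were higher. The part of these cells in the result was not tested. Lymph node and Eif2s3y level also differed between the groups, so tissue, sex and treatment cannot be told apart. Control IgG against primed CD4+ T cells gave 0 calls among the 8 genes in limma, with 1 at an unadjusted p under 0.05 (Egr3, 0.38, interval 0.09 to 0.67), where 0.0872% of all genes were called. The intervals of Egr1, Egr2, Irf4 and Batf in that comparison lay within -0.333 and 0.359. Those of Nr4a1 (-0.514 to 0.478), Nr4a3 (-0.262 to 0.44) and Nr4a2 (-0.41 to 0.157) reached further.

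Over the 5 CD4+ groups, the order of levels was the same for Egr1, Egr2 and Nr4a3: tolerised, abatacept, control IgG, primed and unimmunised, from high to low. Neighbours that overlapped in this order were control IgG and primed for all 3 genes, and tolerised and abatacept for Nr4a3. Nr4a1 followed it except that primed and control IgG changed places, with overlapping arrays. Batf ran primed, control IgG, tolerised, abatacept and unimmunised, and only primed and control IgG overlapped. Irf4 overlapped between every pair of neighbours above the unimmunised arrays. The group means of Egr3 spanned 0.60 and those of Nr4a2 0.40 in CD4+ T cells, against 3.86 for Egr2.

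The genes whose mean-centred profiles lay nearest, by root mean square distance over the 15 CD4+ arrays, were partly the factors themselves. For Egr1 they were Ephx1 at 0.29, Nr4a3 at 0.30 and Lad1 at 0.30. For Nr4a3 they were Ntn4 at 0.26, Egr1 at 0.30 and Ephx1 at 0.34, and for Egr2 Ephx1 at 0.30, Tnfrsf9 at 0.33 and Irf4 at 0.36. Nr4a1 lay nearest to Arhgap20, Hivep3 and Fibcd1 (0.29 to 0.34), and Nr4a3 was the 24th nearest gene at 0.52. Irf4 lay nearest to Cd6, Cd5 and Gm8369 (0.22 to 0.25). Cd6 and Cd5 encode surface receptors of T cells and belong to the T cell marker list. Of that list 8 of 9 genes were lower in unimmunised than in primed arrays. The part of T cell content in this nearness was not tested. Batf lay nearest to Akap12, Ksr1 and Rnf157 (0.22 to 0.24), and Irf4 ranked 403rd from it. Such distances describe 15 arrays that share 5 groups.

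Probe sets of a gene did not always move alike. The second Egr2 probe set moved in the same direction in CD4+ T cells and further, at 0.92 under abatacept and 1.56 in tolerised mice, with a 26.5-fold difference between tolerised and unimmunised CD4+ T cells. Both other Nr4a3 probe sets rose under abatacept (0.90, adjusted p = 0.0404, and 1.17, adjusted p = 0.0023) and in tolerised mice (1.08 and 1.18). The second Irf4 probe set differed by 0.43 between tolerised and primed CD4+ T cells (adjusted p = 0.077) and was therefore not called there. For Nr4a2 the kept probe set was higher in tolerised than in primed CD4+ T cells by 0.27 and was not called, while 1455034_PM_at was higher in tolerised than in primed CD4+ T cells by 1.52 (adjusted p = 3.13e-06), higher under abatacept by 0.62 (adjusted p = 0.0025) and lower in primed than in unimmunised cells by 1.05 (adjusted p = 4.79e-06). Probe set 1450750_PM_a_at, designed on the same transcript record as the kept one, showed 1.78, 0.86 (adjusted p = 0.071) and -1.27 for the same comparisons. Group means of these probe sets lay between 2.99 and 4.77 in CD4+ T cells, near or below the array medians, and the group means of the other Nr4a2 probe sets lay between 3.51 and 4.09. Which probe set reports Nr4a2 was not tested.

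**Figure D4:**
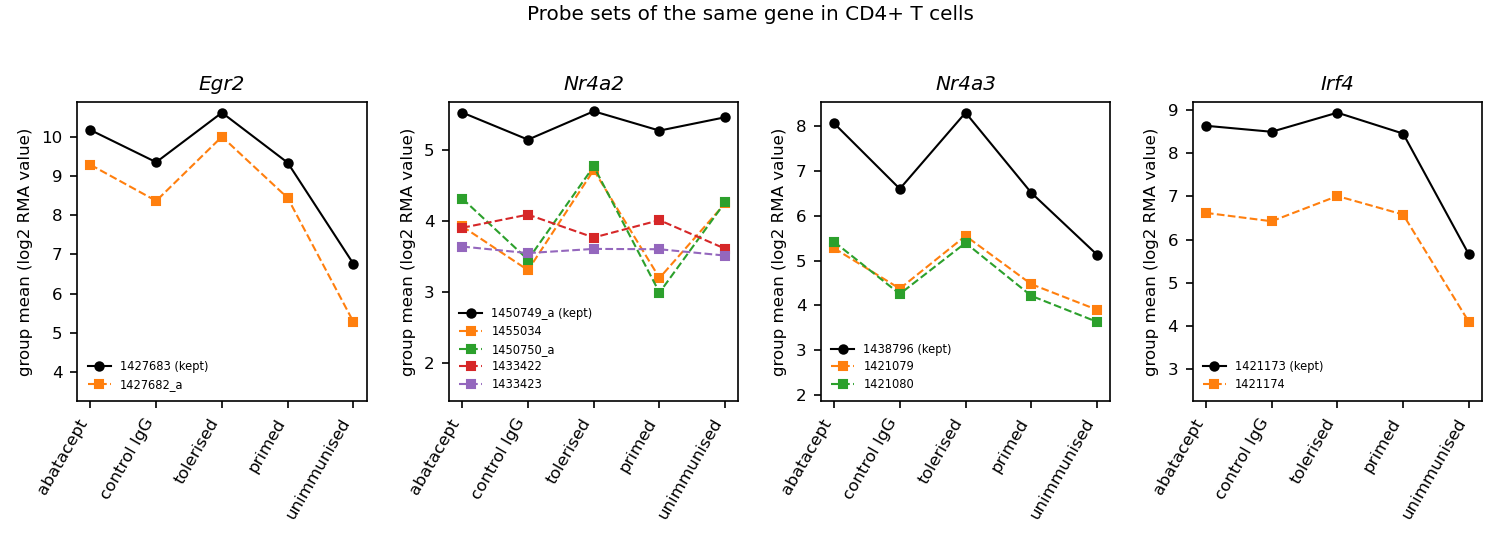
Group means (log2 RMA value, y axis) of every probe set of Egr2, Nr4a2, Nr4a3 and Irf4 in CD4+ T cells, for 5 groups on the x axis. Black circles are the probe set kept for the gene and coloured squares are the others; lines only join the points of 1 probe set, and heights of different probe sets are not comparable. In the Nr4a2 panel 1455034_PM_at and 1450750_PM_a_at were higher in tolerised than in primed arrays by 1.52 and 1.775, and the kept probe set by 0.27.

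CD11c+ cells gave another picture under abatacept. Of the 8 genes, 2 fell and 6 were not called, where 15.3% of all 10203 genes tested were called and 8.86% were called lower. Irf4 read 7.45, 7.40 and 7.64 in abatacept arrays, against 8.41, 7.94 and 8.54 in control IgG arrays, a fall of 0.80 (SE 0.13, adjusted p = 0.00254) or 1.74-fold. Egr2 read 8.12, 8.31 and 8.60 in abatacept arrays, against 9.25, 8.78 and 9.07 in control IgG arrays, a fall of 0.69 (SE 0.16, adjusted p = 0.0113). In 4 of the 8 genes the groups did not overlap, these included, as in 36.9% of all genes, but the Egr2 call was lost without abatacept replicate 1, control IgG replicate 1 or control IgG replicate 3 (-0.67 to -0.58, adjusted p 0.0515 to 0.0557). Nr4a3 differed by -0.59 (interval -1.02 to -0.16, adjusted p = 0.0643) and was called without control IgG replicate 2 (-0.80, adjusted p = 0.0118). Egr1 differed by -0.18 (interval -0.50 to 0.15), Nr4a1 by 0.04 (interval -0.12 to 0.21) and Batf by -0.13 (interval -0.37 to 0.12).

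The make-up of these fractions differed too. Of 7 dendritic cell markers 6 were lower under abatacept (median -0.68), with a summed level of 12.24 to 12.36 in abatacept and 12.53 to 12.75 in control IgG arrays. Itgax was lower by 0.37 and Flt3, the receptor of a dendritic cell growth factor, by 0.81. Of 7 monocyte and macrophage markers 4 were higher and 2 lower, and of 6 red pulp macrophage markers 3 were higher, with Spic, the factor that defines those cells, higher by 0.86. Eif2s3y was low in every abatacept array and high in the control IgG arrays, and Amy1, a salivary amylase gene, read 2.63, 2.79 and 7.69 in abatacept and 5.23, 11.43 and 11.31 in control IgG arrays. The part of cell types and of salivary transcripts was not tested, and sex and treatment cannot be told apart. Of 9 tested genes reported as regulated by Egr2 or Egr3, 4 fell in the same comparison, among them Tnfrsf9 by 0.71 and the cell cycle inhibitor gene Cdkn1a by 1.83. Of 7 relatives of Batf and Irf4 3 fell, among them Batf3 by 0.52 and Irf8 by 0.45, both factors of the dendritic cell subset that cross-presents antigen.

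Tolerised against primed CD11c+ cells gave 0 calls among the 8 genes in limma, with 4 at an unadjusted p under 0.05 and 2.84% of all genes called. Those 4 were all lower in tolerised arrays: Nr4a3 by 0.47, Irf4 by 0.38, Egr2 by 0.36 and Nr4a1 by 0.27 (adjusted p 0.0852 to 0.241). Each of the 4 was free of overlap between the groups, as were 22.9% of all genes. The second Irf4 probe set was called lower, at -0.545 (adjusted p = 0.0144). Eif2s3y averaged 2.62 in tolerised and 8.58 in primed arrays, so sex and treatment cannot be told apart. Of 6 natural killer cell markers 2 were higher in tolerised arrays. Of 7 dendritic cell markers 1 was lower, as was 1 of 6 red pulp macrophage markers. The part of these cells was not tested. Control IgG against primed CD11c+ cells also gave 0 calls in limma, with 1 at an unadjusted p under 0.05 (Nr4a2, 0.36) and 0.0196% of all genes called. The difference between the abatacept and the tolerance contrast gave 0 calls in CD11c+ cells in limma, with 2 at an unadjusted p under 0.05 (Nr4a1 and Irf4) and 14.6% of all genes called. Both were called without control IgG replicate 2, Irf4 at -0.595 (adjusted p = 0.0103) and Nr4a1 at 0.37 (adjusted p = 0.0338).

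Against unimmunised mice, primed CD11c+ cells were higher in 4 of the 8 genes, where 38.6% of all genes were called and 25.5% were called higher. Egr2 read 9.12, 9.02 and 9.07 in primed arrays, against 7.45, 7.52 and 7.46 in unimmunised arrays, a 3.02-fold rise (1.59, SE 0.16, adjusted p = 1.28e-05). Egr1 read 8.54, 8.45 and 8.47 in primed arrays, against 6.95, 7.34 and 7.47 in unimmunised arrays, a 2.35-fold rise (adjusted p = 5.78e-05). Nr4a3 rose 2.19-fold and Irf4 2.11-fold, and in all 4 genes the lowest primed array exceeded the highest unimmunised one, as groups did not overlap in 51.2% of all genes. Tolerised CD11c+ cells were higher in the same 4 genes, Egr2 by 1.23, Egr1 by 1.12, Irf4 by 0.69 and Nr4a3 by 0.66, and Nr4a1 was lower by 0.29 (adjusted p = 0.00711), with 48.6% of all genes called, 31.9% higher and 16.7% lower. The Nr4a3 call was lost without unimmunised replicate 1 (0.44, adjusted p = 0.0743). In the same comparison Batf was called without tolerised replicate 2 (0.37) or unimmunised replicate 3 (0.34), and Nr4a2 without tolerised replicate 3 (0.53). Other Nr4a2 probe sets were called higher in primed cells in limma, 1455034_PM_at by 0.73 (adjusted p = 0.0125) and 1450750_PM_a_at by 0.84 (adjusted p = 0.0327). In tolerised cells 1455034_PM_at was called (0.75) and 1450750_PM_a_at was not (0.46). Abatacept CD11c+ cells were higher only in Egr1, by 0.96 (adjusted p = 0.00627), and Egr2, by 0.865 (adjusted p = 0.0133), with 2.34% of all genes called and 2.1% called higher. The Egr2 call was lost without abatacept replicate 2 or 3 (0.88 and 0.74, adjusted p 0.0569 and 0.0637). Neutrophil markers were higher in primed than in unimmunised arrays in 6 of 6 cases (median 2.88), dendritic cell markers in 7 of 7 (median 1.07), T cell markers in 5 of 7 and natural killer cell markers in 4 of 6. Red pulp macrophage markers were lower in 6 of 6 cases (median -1.03), and of 7 monocyte and macrophage markers 2 were higher and 5 lower. The part of these cells in the rises was not tested. Eif2s3y averaged 8.58 in primed and 2.585 in unimmunised arrays, so sex and priming cannot be told apart there. It averaged 2.62 in tolerised and 2.53 in abatacept arrays. Amy1 read 4.26, 12.15 and 2.31 in unimmunised arrays and averaged 2.38 in primed ones. The part of salivary transcripts was not tested.

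Between abatacept and tolerised CD11c+ cells 2 of the 8 genes were called, where 37.5% of all genes were, 16.6% as higher and 20.9% as lower. Irf4 was lower under abatacept by 0.48 (adjusted p = 0.0107). Nr4a1 read 6.22, 6.09 and 6.18 in abatacept arrays, against 5.73, 5.74 and 5.81 in tolerised arrays, a 1.32-fold rise (0.40, SE 0.08, adjusted p = 0.00115). Egr2, at -0.37, was called without abatacept replicate 3 (-0.49) or tolerised replicate 2 (-0.53). In the same comparison 6 of 7 dendritic cell markers were lower under abatacept (median -0.745), as were 6 of 6 neutrophil markers (median -1.85), 4 of 7 T cell markers and 4 of 6 natural killer cell markers. Red pulp macrophage markers were higher in 6 of 6 cases (median 1.575), and of 7 monocyte and macrophage markers 5 were higher and 2 lower. The part of these cells in the result was not tested. Other CD11c+ levels moved less. Batf group means spanned 0.26, those of Egr3 0.18 and those of Nr4a1 0.40, those of Nr4a2 0.66, while Egr2, Egr1, Nr4a3 and Irf4 spanned 1.076 to 1.595. Egr3 lay close to the array medians on all CD11c+ arrays, at 4.40 to 4.90. The CD11c+ order of Egr1 and Egr2 was primed, control IgG, tolerised, abatacept and unimmunised, and only the unimmunised arrays were free of overlap with their neighbours.

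Between the cell types, CD4+ T cells minus CD11c+ cells, the picture turned with the condition. Only in unimmunised mice did both fractions come from nodes pooled with spleen, so elsewhere tissue and cell type cannot be told apart. Eif2s3y averaged 8.89 in CD4+ and 2.62 in CD11c+ tolerised arrays, and 2.51 in CD4+ and 7.63 in CD11c+ control IgG arrays. Sex and cell type cannot be told apart in those conditions. CD4+ unimmunised arrays held markers of other cells, whose part was not tested. In unimmunised mice 6 of the 8 genes were called, 1 higher and 5 lower in CD4+ T cells, with 66.4% of 10838 genes called in the fit over all 30 arrays, 38.6% as higher and 27.8% as lower. Irf4 was lower in CD4+ T cells by 1.63, Nr4a3 by 1.25, Nr4a1 by 0.97, Egr2 by 0.72 and Batf by 0.47, and Egr1 was higher by 0.41, a call lost without replicate 1 of either cell type (0.24 to 0.26). In tolerised mice all 8 were called, 7 of them higher in CD4+ T cells (60.1% of all genes called, 28.2% higher and 31.9% lower). Egr1 was higher by 2.20, Egr2 by 1.91, Batf by 1.301, Nr4a3 by 1.27, Nr4a1 by 1.20, Irf4 by 0.96 and Egr3 by 0.57, and Nr4a2 was lower by 0.37, a call lost without tolerised replicate 1 or 3 of CD4+ T cells or replicate 1 or 2 of CD11c+ cells (-0.34 to -0.27). In abatacept mice 7 were called, all higher in CD4+ T cells (68.7% of all genes called, 33% higher), from Egr1 by 1.91 to Nr4a1 by 0.60, a call lost without CD4+ abatacept replicate 1 (0.37, adjusted p = 0.064). In control IgG mice 6 were called, 3 higher and 3 lower in CD4+ T cells (65.7% of all genes called, 35.1% higher and 30.6% lower), and in primed mice 5, with 2 higher and 3 lower (63.2% of all genes called, 34.1% higher and 29.1% lower). Batf was higher in CD4+ T cells of primed mice by 1.79 and Nr4a3 was lower by 0.99. The other Nr4a3 probe sets were not called in primed (-0.29 and -0.35), control IgG (-0.41 and -0.15) or unimmunised mice (0.07 and -0.34). They were called higher in CD4+ T cells of tolerised and of abatacept mice. For Nr4a2, the kept probe set was not called in abatacept mice (-0.28). There 1455034_PM_at (-1.24) and 1450750_PM_a_at (-0.92) were called lower in CD4+ T cells. Egr2 and Irf4 were not called in control IgG or primed mice. Egr2 was called without CD11c+ control IgG replicate 1 (0.43) or CD4+ primed replicate 2 (0.43), and Irf4 without CD11c+ control IgG replicate 3 (0.32).

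The contrasts themselves differed between cell types by a direct test. For abatacept minus control IgG, 7 of the 8 genes were called (14.3% of all genes called, 4.97% higher and 9.29% lower), and the difference, CD4+ minus CD11c+, was 2.05 for Nr4a3 (SE 0.27, adjusted p = 1.63e-05), 1.51 for Egr2 (adjusted p = 2.91e-05) and -1.004 for Batf (adjusted p = 0.000594). For tolerised minus primed, 6 of the 8 were called (11.2% of all genes called, 4.94% higher), led by Nr4a3 at 2.27 (SE 0.27, adjusted p = 6.79e-06), Nr4a1 at 1.92 and Egr2 at 1.64. In both differences of contrasts the CD11c+ side compares groups that differ in Eif2s3y and the CD4+ side does not. For tolerised minus primed, the CD4+ side also compares mesenteric with axillary nodes, while both CD11c+ groups came from nodes pooled with spleen. Tissue and treatment therefore cannot be told apart in that difference.

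**Figure D5:**
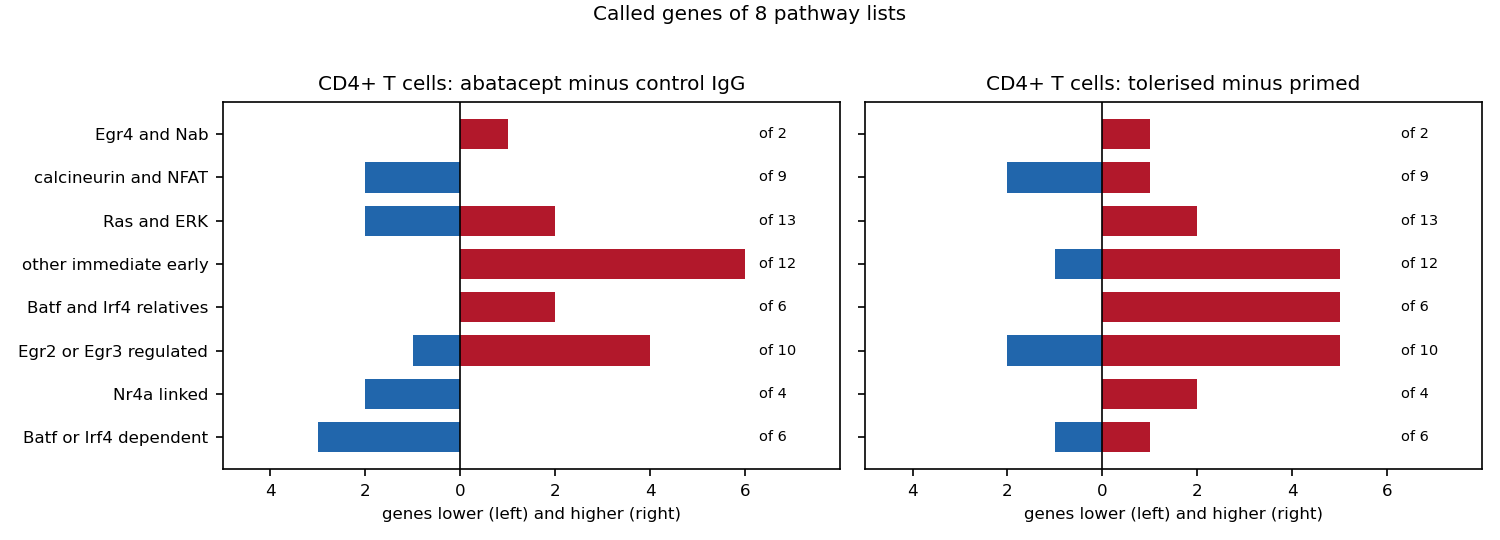
Number of called genes (x axis, higher to the right and lower to the left of 0) in 8 lists of pathway genes in CD4+ T cells, for abatacept minus control IgG (left) and tolerised minus primed (right). The figures at the right of each panel give the genes tested in a list; other immediate early genes rose in 6 of 12 cases under abatacept and in 5 of 12 in tolerised mice.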

How the data were processed

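Levels were measured on Affymetrix mouse arrays in 30 samples, 3 in each of 5 groups of CD4+ T cells and 5 groups of CD11c+ cells. The authors deposited log2 values per probe set, made with RMA per the submitters' processing notes; which version was used is not given in these sources. RMA background-corrects, quantile-normalises and summarises probes, which compresses differences of dim probe sets. Scanner files were not used. Of 45118 probe sets, 28898 had 1 gene symbol in GEO's platform annotation, 551 several and 15669 none; 28689 matched RefSeq by Entrez identifier and 0 symbols changed. A gene was tested if it exceeded the array median on 3 or more arrays: 10322 in CD4+ T cells, 10203 in CD11c+ cells and 10838 over all arrays.

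Differences were fitted with limma 3.58.1 in R 4.3.3 over all 15 arrays of a cell type, or all 30 between cell types, with two-sided p-values adjusted by Benjamini-Hochberg over all genes tested and called under 0.05. In simulated data for the CD4+ comparison of abatacept with control IgG (10322 genes), 68% of differences of 0.5 and 96% of differences of 1 were recovered. For the same comparison in CD11c+ cells (10203 genes), 56% and 92% were recovered. Differences of -1 were recovered in 94% of cases for CD4+ and 88% for CD11c+ cells. Of the calls in the simulated data, 4.3% of 186 were false for CD4+ and 6.15% of 179 for CD11c+ cells. Simulated noise was independent between genes, and the groups differed in no other way. In the measured data 1722 and 1560 genes were called in these comparisons, and genes vary together. The simulated rates are therefore not error rates of the calls reported here. Named were the 8 genes, at most 4 called genes of a pathway list and 2 of a marker list by smallest adjusted p, the 3 nearest profiles, and Eif2s3y and Amy1; Cd3e, Itgax and S100a8 levels and the ranks of the 8 genes among profiles were added after their values were seen. The genes and lists were chosen with earlier results of these data known. Alternatives were other probe sets, their mean, no filter, repeated quantile normalisation, array weights, fewer groups, a replicate block, covariates for Eif2s3y and for salivary transcripts, and each array left out. Python 3.11.15, pandas 2.3.3 and matplotlib 3.10.9 were used for tables and figures. The number of arrays limits the precision.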

Additional observations from a re-analysis of the deposited data

Results flagged for a closer look

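The effect of abatacept relative to control IgG differed between CD4+ T cells and CD11c+ cells in 7 of the 8 genes by the interaction term of the limma fit over 30 arrays. The difference, CD4+ minus CD11c+, was 2.055 for Nr4a3, 1.512 for Egr2, 1.421 for Nr4a1, 1.044 for Egr1, 0.939 for Irf4, 0.757 for Nr4a2 and -1.004 for Batf (adjusted p 1.63e-05 to 0.0173). The Nr4a2 call was lost without CD4+ control IgG replicate 1 (0.639, adjusted p = 0.0544) or CD11c+ control IgG replicate 3 (0.602, adjusted p = 0.0687). It was also lost with probe set 1450750_PM_a_at (1.253, adjusted p = 0.0585) and kept with 1455034_PM_at (1.052, adjusted p = 0.005). Tolerised relative to primed differed between the cell types in 6 of the 8 genes: 2.265 for Nr4a3, 1.915 for Nr4a1, 1.641 for Egr2, 1.468 for Egr1, 0.868 for Irf4 and 0.594 for Egr3 (adjusted p 6.79e-06 to 0.0299). The Egr3 call was lost when any 1 of 8 arrays was left out, namely CD4+ primed replicate 1 or 2, CD4+ tolerised replicate 2 or 3, CD11c+ primed replicate 1 or 2, or CD11c+ tolerised replicate 1 or 3 (0.533 to 0.597, adjusted p 0.0524 to 0.0786). Batf, at -0.49 (adjusted p = 0.0892), was called without CD4+ primed replicate 2 (-0.604) or CD11c+ tolerised replicate 2 (-0.605). In this contrast the lymph nodes differed between groups on the CD4+ side only, so tissue and treatment cannot be told apart. Eif2s3y differed between groups on the CD11c+ side only, in both contrasts.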

How the results depend on the processing

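The 8 genes in 23 comparisons gave 184 values, of which 93 were called. The fit with the replicate number as a block kept 93 of these calls, the mean of all probe sets 93, repeated quantile normalisation 92, array weights 91, no filter on low values 91, and fits of only the groups compared 89. The mean of all probe sets gave 176 values and gained 10 calls. Replicate numbers did not pair the arrays: in 0 of 19 comparisons was every pair's correlation over 0.1 (range -0.236 to 0.321). A covariate for salivary transcripts kept 60 of 60 calls, leaving out the unimmunised arrays 18 of 18, and leaving out single arrays 599 of 642. With Eif2s3y as a covariate 49 calls were kept, among them all 5 of CD4+ abatacept against control IgG and all 5 of CD4+ tolerised against primed. The slope of this covariate comes only from the spread of Eif2s3y within groups. Where Eif2s3y itself differs between groups, that slope is carried over the gap, which widens the error of the difference. The fit therefore cannot tell Eif2s3y and group apart there. The number of the 8 genes called became 0 for CD4+ primed and for CD4+ tolerised against unimmunised, and 0 for CD4+ abatacept against tolerised. It also became 0 for CD11c+ abatacept against control IgG, for CD11c+ primed against unimmunised, and for both differences between cell types. It became 2 for the difference of the abatacept and tolerance contrasts in either cell type, 3 for CD4+ against CD11c+ cells in control IgG mice and 2 in tolerised mice. Values that changed sign with it were Egr3 in CD4+ tolerised against unimmunised (-0.71), Egr2 (0.092) and Irf4 (0.087) in CD11c+ abatacept against control IgG, Nr4a3 in CD11c+ primed against unimmunised (-0.074), Nr4a3 between cell types in control IgG mice (0.054) and Irf4 in the tolerance contrast between cell types (-0.074). Fits of only the groups compared called 1 gene in CD4+ abatacept against tolerised, the mean of probe sets 1 in CD11c+ tolerised against primed (Irf4, -0.464), and array weights 1 in the CD11c+ difference of contrasts; the cause was not tested. Other probe sets, chosen as an alternative after the data were seen, gave 138 values, kept 53 of 64 calls and gained 17. They changed the sign of Nr4a2 in CD4+ abatacept against unimmunised (-0.325) and in the CD4+ difference of contrasts (-0.902). They also changed the sign of Nr4a3 between cell types in unimmunised mice (0.070). The cause was not tested. With 1 array left out, the number called ranged from 1 to 4 for CD4+ abatacept against tolerised, 0 to 1 for the CD4+ difference of contrasts, 1 to 3 for CD11c+ abatacept against control IgG, 1 to 2 for CD11c+ abatacept against unimmunised and 0 to 2 for the CD11c+ difference of contrasts.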
